A study of Mus musculus with 36 samples.

Results

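The cytosines described here lie in the parts of the mouse genome that hold no annotated gene. They are autosomal CpG cytosines more than 10 kb from the body of every RefSeq gene or pseudogene of GRCm38, read at least 10 times in all 6 oxidative bisulfite libraries of a week. At 4 weeks 108731 cytosines met this rule, 7.52% of the 1444973 cytosines tested on all chromosomes, and at 12 weeks 101121 did, 7.94% of 1273121. In 94195 of them the rule was met in both weeks. The methylation level played no part in the choice. Each cytosine was read on its own strand, so the 108731 cytosines of the 4-week set belong to 97248 CpGs. The median distance to the nearest gene was 26.8 kb and the largest was 681 kb.

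Osteoarthritis was induced in the right knees of male C57BL/6J mice by surgical destabilization of the medial meniscus (DMM) at an age of 12 weeks, and the unoperated left knees of the same mice were the controls, with no sham operation. Cartilage of the tibial plateaus and femoral condyles was microdissected 4 and 12 weeks later, and tissue of 3 knees was pooled for each library. For each limb and week, 3 DNA samples were profiled by reduced representation oxidative bisulfite sequencing (RRoxBS) and 3 RNA samples, from other mice, by RNA-seq. Each DNA sample was read as an oxidised (oxBS) and as a mock-oxidised (BS) library.

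5-methylcytosine (5mC) is the DNA mark that covers most CpGs of mammalian genomes, and it is oxidised to 5-hydroxymethylcytosine (5hmC) by the TET enzymes on the way to demethylation. Far from genes most CpGs are methylated, many of them inside transposon remnants, and stretches of intermediate or low methylation there often mark enhancers, CpG islands without an annotated gene or binding sites of transcription factors. Bisulfite sequencing reads both marks as methylated, whereas after oxidation only 5mC is read as methylated. Here the oxBS percentage of a cytosine was taken as its 5mC and what the BS percentage had above it as its 5hmC. The same oxBS libraries thus entered both values, and a low oxBS reading lowers 5mC and raises 5hmC at once.

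The sequences of 3 regions in which 5mC was lower and 3 in which it was higher in DMM at 12 weeks are given first, because they hold the widest mean differences among the differentially methylated regions far from genes. Each is printed from GRCm38 with up to 20 bases on either side. Capitals mark the CpGs whose cytosines were measured, and the other letters are in lower case.
Lower in DMM, nearest gene Gm19510, chr15:59746211-59746302, plus strand: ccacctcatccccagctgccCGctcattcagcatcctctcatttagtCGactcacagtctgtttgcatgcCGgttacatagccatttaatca
Lower in DMM, nearest gene 1700001J04Rik, chr11:114152951-114153032, plus strand: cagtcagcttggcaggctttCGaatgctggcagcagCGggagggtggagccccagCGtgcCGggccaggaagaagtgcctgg
Lower in DMM, nearest gene C2cd4a, chr9:67799145-67799262, plus strand: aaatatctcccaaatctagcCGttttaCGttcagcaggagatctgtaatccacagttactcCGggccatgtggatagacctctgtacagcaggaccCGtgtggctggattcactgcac
Higher in DMM, nearest gene Mturn, chr6:54719099-54719189, plus strand: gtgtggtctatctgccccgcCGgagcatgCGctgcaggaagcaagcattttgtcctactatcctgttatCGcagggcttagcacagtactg
Higher in DMM, nearest gene Nrros, chr16:32129561-32129646, plus strand: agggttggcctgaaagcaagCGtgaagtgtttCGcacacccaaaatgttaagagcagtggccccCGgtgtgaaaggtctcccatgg
Higher in DMM, nearest gene Gm32663, chr10:118085417-118085576, plus strand: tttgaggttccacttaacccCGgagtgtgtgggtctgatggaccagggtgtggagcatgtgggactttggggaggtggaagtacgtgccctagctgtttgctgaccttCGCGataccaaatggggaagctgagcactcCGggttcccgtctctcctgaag

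For 5hmC, the 3 cytosines that gained most at 4 weeks are shown in the middle of their windows, followed by the 3 stretches with the highest 5hmC in the 4-week control libraries. The last sequence is the start of the longest unmethylated stretch far from genes, shown for its density of CpGs. Capitals again mark the measured CpGs.
5hmC higher in DMM, nearest gene Gli2, chr1:119074860-119074981, plus strand: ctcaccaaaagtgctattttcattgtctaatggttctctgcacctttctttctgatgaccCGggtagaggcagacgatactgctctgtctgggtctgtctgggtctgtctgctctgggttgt
5hmC higher in DMM, nearest gene Ror2, chr13:53065837-53065958, plus strand: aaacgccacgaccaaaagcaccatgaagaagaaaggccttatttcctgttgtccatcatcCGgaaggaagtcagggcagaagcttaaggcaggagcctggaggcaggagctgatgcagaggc
5hmC higher in DMM, nearest gene Sox6, chr7:115446875-115446996, plus strand: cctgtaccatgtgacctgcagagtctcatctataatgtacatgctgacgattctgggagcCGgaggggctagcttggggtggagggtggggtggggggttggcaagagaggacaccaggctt
High 5hmC, nearest gene 1110002J07Rik, chr10:66937291-66937381, plus strand: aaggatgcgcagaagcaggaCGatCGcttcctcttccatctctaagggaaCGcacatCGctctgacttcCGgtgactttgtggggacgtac
High 5hmC, nearest gene Gm36571, chr12:55447662-55447752, plus strand: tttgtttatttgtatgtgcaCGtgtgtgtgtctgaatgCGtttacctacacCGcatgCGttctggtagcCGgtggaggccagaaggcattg
High 5hmC, nearest gene Gm22505, chr3:99779014-99779138, plus strand: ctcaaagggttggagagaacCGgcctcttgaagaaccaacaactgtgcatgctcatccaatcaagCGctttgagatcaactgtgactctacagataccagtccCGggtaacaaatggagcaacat
Unmethylated, nearest gene D130051D11Rik, chr15:85670547-85670846, plus strand: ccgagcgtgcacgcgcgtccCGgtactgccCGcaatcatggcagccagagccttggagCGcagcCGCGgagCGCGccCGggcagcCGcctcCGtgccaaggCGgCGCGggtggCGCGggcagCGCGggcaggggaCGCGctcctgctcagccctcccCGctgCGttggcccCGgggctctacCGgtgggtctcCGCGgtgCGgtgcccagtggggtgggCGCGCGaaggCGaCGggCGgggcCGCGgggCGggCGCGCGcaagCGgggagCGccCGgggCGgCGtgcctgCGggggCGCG

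Over all cytosines the median coverage ranged from 22 to 102 reads among the oxBS libraries of 4 weeks and from 28 to 72 at 12 weeks. Cytosine that stayed unconverted on the mitochondrial genome made up 0.530% to 0.742% of the oxBS reads at 4 weeks and 0.284% to 0.351% at 12 weeks. In the RNA libraries, all 8 chondrocyte markers were found, with Prg4 at a median of 14959 CPM and Matn3 at 0.180 to 27.9 CPM, and the list summed to between 15639.7 and 46770.5 CPM. Bone, muscle and marrow markers were present as well. The 4 osteoblast markers summed to 3236 to 4364 CPM in control and 6165 to 7481 CPM in DMM libraries at 4 weeks, and to 1816 to 2784 CPM in control and 3201 to 4401 CPM in DMM libraries at 12 weeks, with no overlap of the limbs in either week. Most of these sums was Ibsp, at 2431 to 3700 CPM in control and 5320 to 6513 CPM in DMM libraries at 4 weeks and at 1115 to 1656 and 2171 to 3298 CPM at 12 weeks. For the other 3 markers, Bglap, Sp7 and Dmp1, the limbs overlapped in both weeks. The 5 skeletal muscle markers summed to 10438.5 to 30893 CPM in control and 1007 to 5682 CPM in DMM libraries at 4 weeks, and the limbs overlapped at 12 weeks. No defining marker of either list was at 0. In the sum of the 2 adipocyte markers the limbs were also apart, at 4 weeks only. This sum was 46.6 to 69.8 CPM in control and 71.6 to 86.2 CPM in DMM libraries. For each marker alone, Adipoq and Plin1, the limbs overlapped in that week. For the erythroid, neutrophil, endothelial and chondrocyte lists the limbs overlapped in both weeks. Of the macrophage list only Adgre1 was matched, at 40.3 to 52.8 CPM in control and 25.5 to 40.4 CPM in DMM libraries at 12 weeks, which barely overlapped, and the limbs overlapped at 4 weeks. In bulk cartilage a change in the mix of cells and a change of methylation within cells cannot be told apart, and the part of these cell types in the results below was not tested.

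Far from genes mean 5mC was lower and mean 5hmC was higher in the DMM than in the control libraries, a difference that passed the test only with both weeks together. At 4 weeks the mean 5mC over the far cytosines was 67.2%, 64.7% and 65.5% in the 3 control libraries and 65.4%, 63.99% and 64.5% in the 3 DMM libraries, so the limbs overlapped. At 12 weeks it was 67.9%, 67.4% and 68.6% in control and 66.1%, 67.1% and 66.4% in DMM libraries, and every DMM library was below every control library. The difference of the means, DMM minus control, was -1.16 percentage points at 4 weeks (two-sided exact permutation test, p = 0.2, n = 3 per limb), or -0.452 points without control replicate 1, and -1.42 points at 12 weeks (p = 0.1 by the same exact test, the smallest that 3 against 3 libraries allow). With both weeks together the difference was -1.29 points (exact permutation of limbs within week, two-sided, p = 0.015, Benjamini-Hochberg adjusted p = 0.035 over 7 level tests). This holds for a mean in which each cytosine counts equally. When each read counted equally, the deepest 1% of the cytosines held 12.0% to 29.4% of the reads of a library, the 4-week difference turned to 1.27 points and that of both weeks to 0.109 points (exact permutation, p = 0.87), and without those cytosines the read-weighted difference was -1.20 points (exact permutation, p = 0.05).

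The 5hmC level was much lower than the 5mC level. At 4 weeks it was 2.48%, 3.98% and 3.31% in control and 3.54%, 4.36% and 3.88% in DMM libraries, and the limbs overlapped. At 12 weeks it was 2.26%, 2.33% and 2.08% in control and 3.42%, 2.57% and 2.97% in DMM libraries, and all 3 DMM libraries lay above the 3 control libraries. The highest of these, DMM replicate 1, has a BS library whose deposited name gives another replicate number than its label. The label was kept, and across cytosines its deviations from the mean correlated at 0.203 with the oxBS library labelled DMM replicate 1 and at 0.0735 or less with the other five. This check does not always find the own sample. The BS library of 12-week control replicate 1 correlated at 0.146 with its own oxBS library and at 0.148 with that of control replicate 3. Those of 4-week DMM replicates 1 and 3 also correlated best with another sample. The difference was 0.670 points at 4 weeks (exact permutation, p = 0.3), with 0.282 points without control replicate 1 and 1.03 points without control replicate 2, and 0.764 points at 12 weeks (exact permutation, p = 0.1), or 0.548 points at 12 weeks without DMM replicate 1. Over both weeks it was 0.717 points (exact permutation, p = 0.025, adjusted p = 0.035 over the 7 tests). It was 0.417 points, and no longer past the threshold, when negative values of single cytosines were set to 0 (exact permutation, p = 0.41). Weighted by reads it was 0.409 points (exact permutation, p = 0.11), and without the 12-week control replicate 2 and DMM replicate 1, whose titles share a style, it was 0.636 points (exact permutation, p = 0.05), so that the call was lost in both settings. The threshold was also missed without control replicate 1 or 3 or DMM replicate 2 or 3 of 4 weeks, or without control replicate 3 or DMM replicate 1 or 3 of 12 weeks, with differences of 0.523 to 0.731 points (exact permutation, p of 0.05 to 0.06), whereas the 5mC difference passed it without any single library. The BS level, which holds both marks, was 0.609 points lower in DMM over both weeks (exact permutation, p = 0.03, adjusted p = 0.035), a smaller difference than that of 5mC alone, and 7 of the 12 libraries each ended this call when left out, with -0.439 to -0.622 points. Weighted by reads the BS difference turned to 0.546 points over both weeks (exact permutation, p = 0.43) and 1.57 points at 4 weeks, and beyond 50 kb it was -0.327 points and no longer past the threshold (exact permutation, p = 0.09). Neither the 5mC nor the 5hmC difference was shown to change between the weeks, with differences of -0.259 and 0.0936 points between the limb effects of 12 and 4 weeks (exact permutation, p = 0.84 and p = 0.885).

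**Figure D1:**
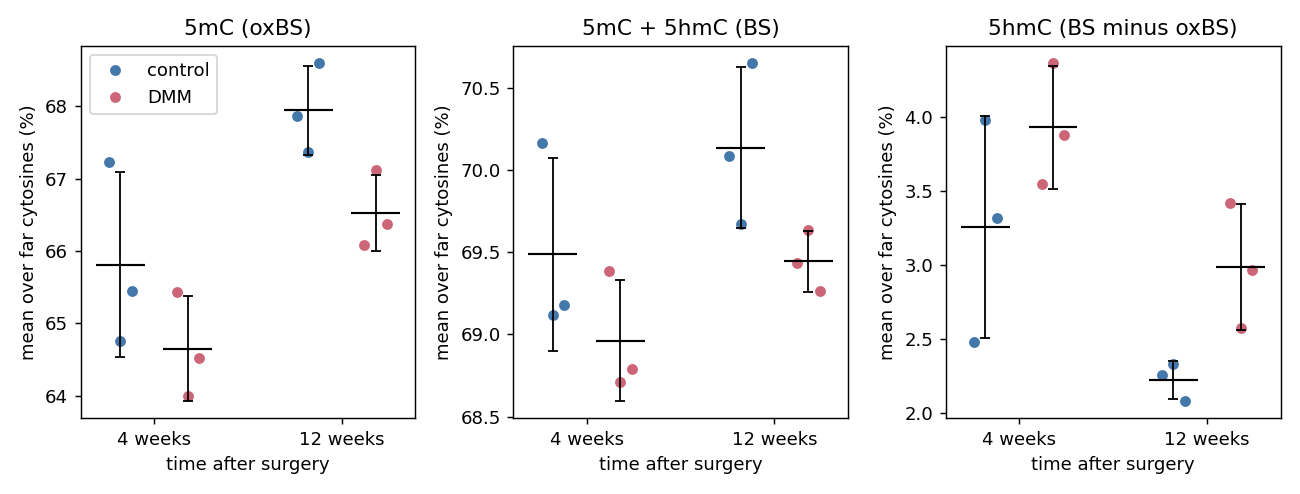
Mean 5mC, BS level (5mC plus 5hmC) and 5hmC over the cytosines far from genes in percent (vertical axes, which do not start at 0), with a point for each of the 3 control and 3 DMM libraries at 4 and 12 weeks after surgery; bars are means and SD. At 12 weeks the 5mC of every DMM library (66.1% to 67.1%) lies below that of every control library (67.4% to 68.6%) and the 5hmC above it, whereas the limbs overlap at 4 weeks.

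Between the weeks, far cytosines gained 5mC and lost 5hmC. Over the 94195 cytosines read in both weeks, 5mC was 66.6% ± 1.29 (SD, n = 3) at 4 weeks and 67.8% ± 0.626 at 12 weeks in control, and 65.4% ± 0.736 and 66.4% ± 0.536 in DMM. With both limbs together the difference was 1.14 points (exact permutation of weeks within limb, p = 0.045, adjusted p = 0.045). This call was lost when any of 10 of the 12 libraries was left out, with differences of 0.871 to 1.28 points in those settings, and the read-weighted difference was -0.537 points (exact permutation, p = 0.46). Over 87060 cytosines, 5hmC was 3.26% ± 0.740 and 2.20% ± 0.128 in control, and 3.91% ± 0.395 and 2.95% ± 0.427 in DMM. The difference of -1.01 points reached the smallest p the design allows (exact permutation, p = 0.005, adjusted p = 0.035), but with negative values set to 0 it was -0.305 points (exact permutation, p = 0.545). Week, age, library pool and the unconverted cytosine given above cannot be told apart here.

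The control level of 65.8% at 4 weeks was an average over unlike cytosines. Of the far cytosines, 9.95% had a mean control 5mC below 10%, 24.4% lay between 80% and 90% and 22.1% between 90% and 100%. In DMM libraries of 4 weeks the shares below 10% and above 90% were 10.6% and 23.8%. At 12 weeks, 20.8% of the cytosines in control and 22.8% in DMM lay above 90%, and the share between 20% and 30% was 2.41% in control and 4.22% in DMM. The DMM libraries thus held more cytosines at both ends of the range and fewer between 80% and 90%, 27.3% in control against 24.6% in DMM at 12 weeks.

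Methylation was lowest near gene starts and highest far from genes, whereas hydroxymethylation was highest in between, in gene bodies and the first 10 kb beside them. Over the 12 libraries 5mC was 14.3 points higher at the far cytosines than at those within 10 kb of a gene, 21.1 points higher than within gene bodies and 61.5 points higher than within 1 kb of a gene start (exact sign-flip permutation over the 12 libraries, p = 0.000488 for each, the smallest these 12 libraries allow). By contrast 5hmC was 0.633 points lower at the far cytosines than within 10 kb of a gene and 0.524 points lower than in gene bodies, but 2.72 points higher than near gene starts (same exact permutation test, p = 0.000488 for each). The 10 kb limit itself marked no step. In control libraries of 4 weeks, cytosines at 10 to 11 kb had a mean 5mC of 58.6% and those at 9 to 10 kb of 58.2%.

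Within the far set the trend went on. Control 5mC at 4 weeks rose from 60.8% ± 1.56 (SD, n = 3) at 10 to 20 kb over 65.4% ± 1.40 at 20 to 50 kb and 69.9% ± 1.11 at 50 to 100 kb to 77.8% ± 0.321 at 100 to 500 kb. The level at 10 to 20 kb was 17.0 points below that at 100 to 500 kb (exact sign-flip permutation, p = 0.000488, adjusted p = 0.000558 over 8 tests). In the same bins control 5hmC fell from 3.73% over 3.49% and 2.70% to 1.68%, and the level at 10 to 20 kb was 1.96 points above that at 100 to 500 kb (exact permutation, p = 0.000488, adjusted p = 0.000558). The effect of DMM followed the same order. Over both weeks 5mC differed by -1.56 points at 10 to 20 kb and by -0.282 points at 100 to 500 kb, and the difference between these effects was -1.28 points (exact permutation, p = 0.015, adjusted p = 0.04 over 8 tests). For 5hmC the effects were 0.814 and 0.427 points, 0.386 points apart (exact permutation, p = 0.03, adjusted p = 0.04). Only 137 cytosines at 4 weeks and 111 at 12 weeks lay more than 500 kb from a gene, and there 5mC was 0.862 points higher in DMM (exact permutation, p = 0.125).

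**Figure D2:**
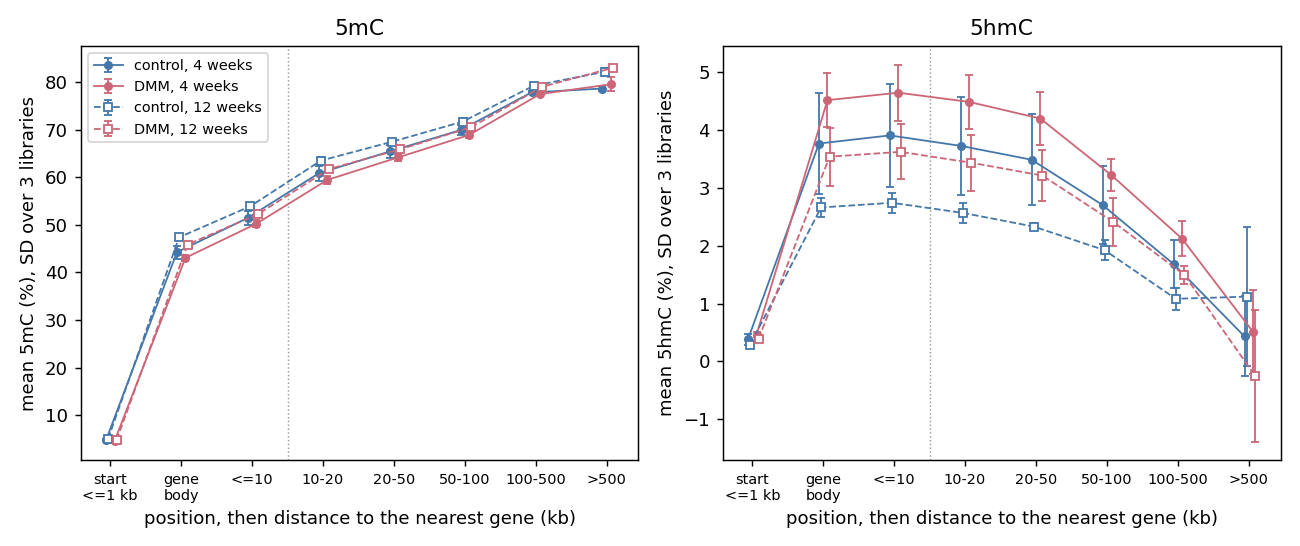
Mean 5mC (left) and 5hmC (right) in percent by position, from cytosines within 1 kb of a gene start over gene bodies and the first 10 kb to the far bins right of the dotted line, for control and DMM libraries of each week; points are means of 3 libraries and bars their SD. 5mC climbs to 77.8% in the 4-week control at 100 to 500 kb, where 5hmC is 1.68%, below its level in gene bodies and the first 10 kb, and both DMM curves of 5hmC run above their controls up to that bin.

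The effect of DMM far from genes was not shown to differ from that within 10 kb of a gene or in gene bodies. On 5mC it was -1.16 and -1.42 points at 4 and 12 weeks far from genes, -1.24 and -1.56 points within 10 kb of a gene, -1.18 and -1.52 points in gene bodies and -0.178 and -0.245 points near gene starts. Over both weeks the far effect minus that within 10 kb was 0.104 points (exact permutation, p = 0.17) and minus that in gene bodies 0.0570 points (exact permutation, p = 0.47). It was wider than that of all other autosomal cytosines together, where the small effect near gene starts is included, by -0.520 points over both weeks (exact permutation, p = 0.025, adjusted p = 0.035). Relative to the level this turned round. At 12 weeks the far cytosines lost 2.09% of their control 5mC and the others 3.32%, from control levels of 67.9% and 26.6%, and over both weeks the far effect was the smaller by 0.0161 on the log2 scale (exact permutation, p = 0.03). Weighted by reads, the difference between the effects was 0.916 points over both weeks (exact permutation, p = 0.31). Beyond 50 kb the difference in points was 0.0526 (exact permutation, p = 0.665). For 5hmC the effect was 0.670 and 0.764 points at 4 and 12 weeks far from genes, 0.739 and 0.881 points within 10 kb, 0.750 and 0.879 points in gene bodies and 0.0779 and 0.105 points near gene starts. The far effect minus that within 10 kb was -0.0932 points (exact permutation, p = 0.095) and minus that in gene bodies -0.0978 points (exact permutation, p = 0.065), whereas it was 0.266 points above that of all others together (exact permutation, p = 0.025, adjusted p = 0.035), and beyond 50 kb the difference was -0.00158 points (exact permutation, p = 0.96). It was -0.0794 points when weighted by reads (exact permutation, p = 0.69) and 0.109 points with negative values set to 0 (exact permutation, p = 0.68). Left out singly, 8 of the 12 libraries ended the 5mC call, with -0.580 to -0.369 points, and 7 the 5hmC call, with 0.198 to 0.272 points.

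The far cytosines differed in sequence from those in gene bodies and near gene starts, and less from those within 10 kb of a gene. Over the cytosine and 250 bp on each side the median GC content at 4 weeks was 49.7%, against 51.3% within 10 kb of a gene. The median ratio of observed to expected CpGs was 0.344, against 0.359 within 10 kb, 0.442 in gene bodies and 0.850 near gene starts. CpG-dense windows had at least 50% GC and a ratio of at least 0.6. They held 7.44% of the far cytosines, 15.2% of those within 10 kb, 33.1% of those in gene bodies and 87.1% of those near gene starts. Repeat-masked bases, in lower case in the reference, held 28.1% of the far cytosines, 15.6% of those within 10 kb and 6.69% of those in gene bodies. These features went with the level of both marks. CpG-dense far cytosines had a control 5mC of 35.9% ± 0.148 (SD, n = 3) at 4 weeks and the others of 68.2% ± 1.37, and over the 12 libraries the dense ones were 32.7 points lower (exact sign-flip permutation, p = 0.000488, adjusted p = 0.000558). Their 5hmC was 2.67 points lower (exact permutation, p = 0.000488, adjusted p = 0.000558).

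Repeats were the more methylated part and did not share the lower 5mC of the DMM libraries. In control libraries of 4 weeks masked far cytosines had 80.6% ± 0.415 5mC and unmasked ones 60.03% ± 1.85, a gap of 20.98 points over all 12 libraries (exact permutation, p = 0.000488, adjusted p = 0.000558). At 12 weeks unmasked cytosines had 62.0% to 63.4% 5mC in control and 59.99% to 61.3% in DMM libraries, with no overlap, whereas masked ones had 81.4% to 82.3% and 82.1% to 82.5%, which overlapped. Over both weeks 5mC differed by -1.88 points at unmasked cytosines (exact permutation, p = 0.015, adjusted p = 0.0393 over 22 tests) and by 0.246 points at masked ones (exact permutation, p = 0.21, adjusted p = 0.22). The effects themselves differed by 2.13 points (exact permutation, p = 0.015, adjusted p = 0.04). For 5hmC the effect was 0.886 points at unmasked and 0.255 points at masked cytosines, and their difference was -0.632 points (exact permutation, p = 0.025, adjusted p = 0.04). In the same way the 5mC effect was -1.38 points outside CpG-dense windows and -0.218 points inside them, 1.16 points apart (exact permutation, p = 0.035, adjusted p = 0.04).

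The 5mC difference was not tied to a few chromosomes. It was negative on 19 of 19 autosomes, from -1.76 points on chromosome 5 to -0.924 points on chromosome 1 (exact permutation, p of 0.015 to 0.04, adjusted p at most 0.0447 over 38 tests), and 5hmC was higher on 19 of 19, by 0.495 to 0.973 points (exact permutation, p of 0.01 to 0.065). The chromosomes share the libraries and are no replicates.

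The 5mC level of a cytosine went with the size of the difference. To keep the level apart from the measurement, cytosines were classed in one week and read in the other. The class was set by the mean 5mC over the control and DMM libraries of that week together. The 36249 cytosines of 20% to 80% 5mC at 4 weeks had 61.9%, 60.99% and 63.2% 5mC in the control and 57.4%, 59.5% and 58.3% in the DMM libraries of 12 weeks, without overlap. In the converse reading, at 4 weeks, 36338 such cytosines had 60.8%, 54.4% and 57.0% in control and 56.2%, 52.7% and 54.1% in DMM libraries, which overlapped. Over both weeks the difference was -3.33 points (exact permutation, p = 0.015, adjusted p = 0.03 over 8 tests). Cytosines above 80% went the other way. At 12 weeks they had 88.4%, 88.2% and 88.8% in control and 89.1%, 89.3% and 88.8% in DMM libraries. At 4 weeks they had 88.5%, 89.1% and 88.1% in control and 88.9%, 88.97% and 88.8% in DMM libraries, which overlapped (exact permutation, p = 0.4). Over both weeks the difference was 0.484 points (exact permutation, p = 0.035, adjusted p = 0.0467). The effects of these classes were 3.82 points apart (-3.82, exact permutation, p = 0.015, adjusted p = 0.03). Below 20% the difference was -1.32 points (exact permutation, p = 0.01, adjusted p = 0.03).

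The 5hmC difference also lay mainly at cytosines of intermediate 5mC. At 12 weeks these had 3.71%, 3.98% and 3.46% 5hmC in control and 6.02%, 4.32% and 4.96% in DMM libraries, with the 3 DMM libraries above the 3 controls. Over both weeks the difference was 1.26 points there (exact permutation, p = 0.025, adjusted p = 0.04), 0.321 points above 80% (exact permutation, p = 0.05, adjusted p = 0.0571) and 0.189 points below 20% (exact permutation, p = 0.085, adjusted p = 0.085). The effect at 20% to 80% exceeded that above 80% by 0.939 points (exact permutation, p = 0.015, adjusted p = 0.03). The DMM effects by 5mC class were not tried with read weights, with negative values set to 0 or without single libraries. The same holds for those by repeat, CpG density and distance bin.

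**Figure D3:**
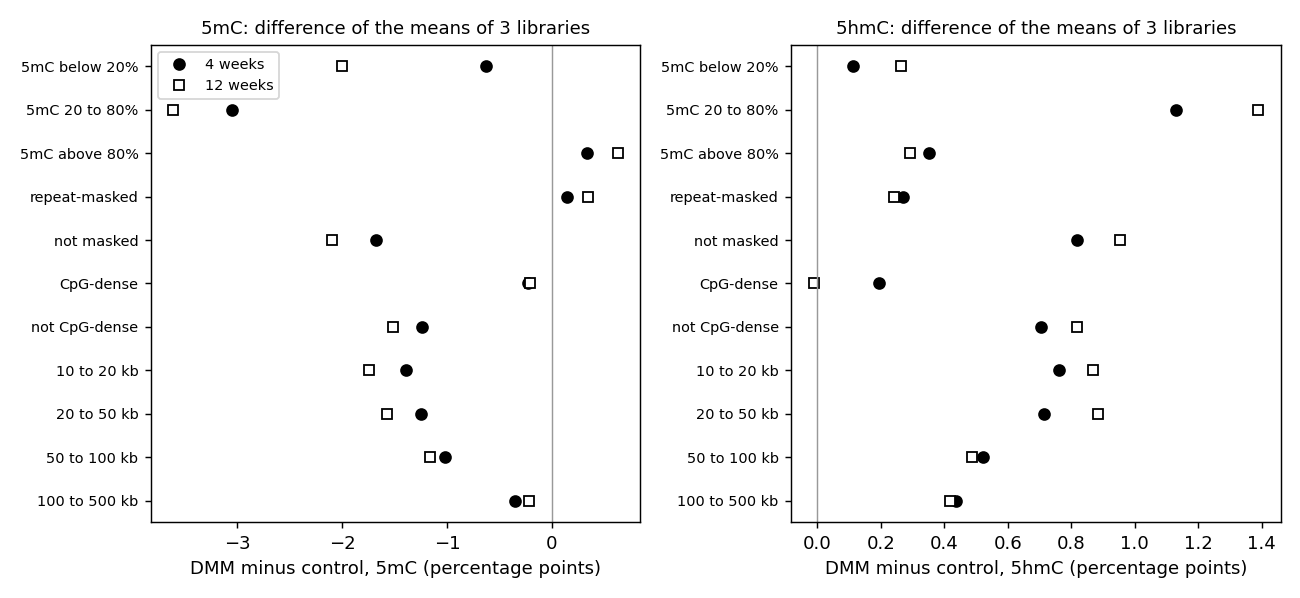
Difference of the means of 3 DMM and 3 control libraries in percentage points for 5mC (left) and 5hmC (right), by class of far cytosines; circles are 4 weeks, squares 12 weeks, and the 5mC classes were set in the other week. The 5mC difference is widest at 20% to 80% 5mC (-3.05 and -3.61 points) and lies at or above 0 in repeats and above 80%, while the 5hmC difference at 20% to 80% is 1.13 and 1.39 points.

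At single cytosines the calls were made on pooled reads with the limits of the study, a difference of at least 25 points and a q under 0.05, over all cytosines tested. This test counts reads and not libraries as its units. At 4 weeks 3 far cytosines were differentially methylated (DMCs), 0.00276% of the far cytosines against 0.000554% of all cytosines tested. Of these 1 was higher in DMM (0.00092% against 0.000208%) and 2 were lower (0.00184% against 0.000346%). The 4-week shares rest on these 3 calls. With the replicate number as a block, 4 far cytosines were called at 4 weeks, 0.00368% against 0.00367% of all cytosines tested. At 12 weeks 393 were called, 0.389% of the far cytosines against 0.227% of all cytosines tested, with 359 lower in DMM (0.355% against 0.2%) and 34 higher (0.0336% against 0.027%). Over all cytosines tested 8 were called at 4 weeks and 2892 at 12 weeks. The paper reports more at these limits in both weeks, from its own pipeline, and the reason was not tested. Most unmethylated cytosines near gene starts cannot lose 25 points. Among cytosines with at least 20% pooled 5mC the share lower in DMM was 0.396% far from genes and 0.5% of all, and the share higher was 0.0378% and 0.0677%. At this limit the far share was the smaller in both directions. The limbs did not overlap at 317 of the 359 lower and at 31 of the 34 higher DMCs. The DMCs were chosen for a wide difference in these same libraries, so this is in part built in. The share among all DMCs was not counted. Whether called or not, the limbs did not overlap, with DMM lower, at 9.37% of the far cytosines and 5.57% of all cytosines tested, and with DMM higher at 4.77% and 2.54%. None of these calls was left under the overdispersed likelihood ratio test, which allows for the spread between libraries and gave 0 DMCs in either week. With so few libraries this test has few degrees of freedom, so its 0 calls cannot tell spread between libraries from a lack of power. At an unadjusted p under 0.05 it found 805 far cytosines at 4 weeks (0.740%) and 3387 at 12 weeks (3.35%), against 0.567% and 1.97% of all cytosines tested. Single libraries moved the counts as well. At 4 weeks 402 far cytosines were called without control replicate 2 (0.370%, against 0.210% of all cytosines tested) and 18 without DMM replicate 1 (0.0166% against 0.0136%). At 12 weeks the lower DMCs numbered 663 without control replicate 2 and 197 without DMM replicate 1, and with those of both directions counted, 0.706% and 0.228% of the far cytosines were called against 0.411% and 0.129% of all cytosines tested. The counts over all cytosines thus moved with those far from genes.

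The 359 DMCs lower at 12 weeks were cytosines of intermediate level, with a mean 5mC of 58.3% in control and 31.1% in DMM libraries and a median pooled difference of -27.4 points. In 344 of them the control mean lay between 20% and 80%. At 342 of them the BS libraries could be read as well, and there the BS level was 53.5% in control and 41.6% in DMM, and the oxBS level 58.4% and 31.3%. The oxBS values chose these cytosines and the BS values did not, so the sizes of the 2 gaps cannot be compared. The 34 DMCs higher in DMM had 35.4% 5mC in control and 62.3% in DMM. Repeats held 4.18% of the lower and 11.8% of the higher DMCs, against 27.5% of the far cytosines. The MspI site CCGG held 61.3% of the lower and 41.2% of the higher DMCs, against 54.9% of the far cytosines.

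The DMCs were scattered. The 393 cytosines formed 333 clusters with gaps of at most 100 bp, of which 289 held 1 DMC, and in none did lower and higher DMCs mix. They had 306 nearest genes, 252 of them with 1 DMC. A protein-coding gene was nearest to 39.7% of the DMCs and to 31.8% of the far cytosines. The nearest genes with the highest counts were Actrt2, Gm30192 and Prss38, with 5 of the 393 DMCs each. With 4 each followed 1700001J04Rik, Gm30337, Gm3529, Lncppara, Nt5m, which encodes a mitochondrial nucleotidase, and Sox6, a transcription factor of cartilage formation. All of these DMCs were lower in DMM. How many far cytosines were tested near each gene was not counted, so these counts cannot be ranked by share. Being nearest does not make a gene the target of a distant site.

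Read in the 4-week libraries, which took no part in the call, the 12-week DMCs differed in the same direction but within the spread of the libraries. Of the 359 lower DMCs 320 could be read at 4 weeks. Their mean 5mC was 49.6%, 29.3% and 38.9% in the control and 35.2%, 24.6% and 28.8% in the DMM libraries, a difference of -9.74 points with overlapping limbs (exact permutation, two-sided, p = 0.2). At 291 of them the DMM mean was the lower and at 29 the higher. All far cytosines of 20% to 80% 5mC also differed by -3.05 points at 4 weeks. The share of those that was lower in DMM was not counted, so this split has no background to be read against. The 320 cytosines lay in 274 chains and share the same libraries, so they are no replicates. Of the 34 higher DMCs 32 could be read, with 38.4%, 60.8% and 51.8% in control and 55.8%, 67.5% and 61.7% in DMM libraries, a difference of 11.3 points (exact permutation, p = 0.2), and the DMM mean was the higher at 30 and the lower at 2. The control libraries of 4 weeks spread widely at these cytosines, with an SD of 10.2 points at the lower and 11.2 points at the higher DMCs.

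**Figure D4:**
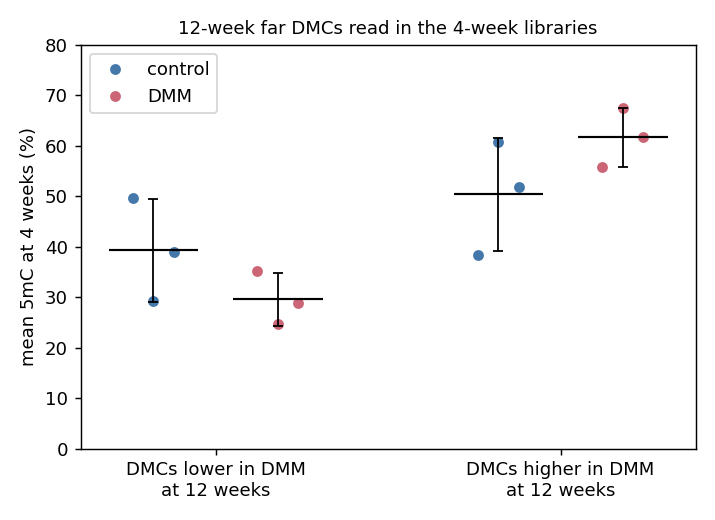
Mean 5mC in percent at 4 weeks (vertical axis from 0) over the far DMCs called at 12 weeks, for those lower in DMM (320 cytosines, left) and higher in DMM (32 cytosines, right); points are the 3 control and 3 DMM libraries, bars means and SD. The means differ in the direction of the call, 39.3% against 29.5% and 50.3% against 61.7%, but the libraries of the limbs overlap.

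A differentially methylated region (DMR) was a run of 3 or more CpGs no further than 100 bp apart whose differences averaged 20 points or more, 1 of them reaching 25 points with a q below 0.01. Far from genes 0 of 13291 chains were DMRs at 4 weeks, as were 0.0% of all chains, and 48 of 12535 at 12 weeks, 0.383% against 0.318% of all chains tested. Of these 45 were lower and 3 higher in DMM. The directions of the DMRs over all chains were not counted. Over all cytosines tested 2548 DMCs were lower and 344 higher at 12 weeks, so this lean is not particular to the far ones. Without control replicate 2 the 4-week count was 32 (0.241% against 0.281% of all chains). The 12-week count was 78 without control replicate 2 (0.622% against 0.473%), 21 without control replicate 3 (0.168% against 0.176%) and 14 without DMM replicate 1 (0.112% against 0.0993%). The paper, from its own pipeline, reports DMRs at 4 weeks as well and more at 12 weeks than all chains gave here, and the reason was not tested. The values of the named DMRs at 12 weeks chose them and are given as a description.

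The DMR of the widest mean difference lay at chr15:59746232-59746282, 42.1 kb downstream of the non-coding gene Gm19510, in intergenic sequence. At 12 weeks its reads had 80.9%, 72.7% and 63.3% 5mC in control and 38.5%, 34.0% and 37.3% in DMM libraries. Its 5hmC was -0.0313%, -6.94% and 19.1% in control and 30.1%, 19.8% and 39.2% in DMM libraries. The 5hmC value is the BS level minus the same oxBS level that chose the region, so an opposite difference in 5hmC is in part built in. At 4 weeks its 5mC was 81.1%, 45.6% and 55.4% in control and 66.04%, 55% and 44% in DMM libraries, which overlapped. The chain was read by 30 to 75 reads per library at 12 weeks.

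The second lay at chr11:114152972-114153012, 32.4 kb downstream of the non-coding gene 1700001J04Rik. At 12 weeks it had 39.6%, 43.1% and 56.6% 5mC in control and 18.8%, 12.9% and 6.78% in DMM libraries. At 4 weeks, in libraries the choice did not use, it had 29.7%, 17.6% and 38.4% in control and 13.8%, 3.85% and 8.33% in DMM libraries, again with every DMM library below every control. In the other named DMRs the limbs overlapped at 4 weeks. How many chains keep the limbs apart in that week was not counted, so this has no background to be read against. Its 5hmC overlapped in both weeks.

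The third, at chr9:67799166-67799241, lay 31.3 kb downstream of C2cd4a, which encodes a C2-domain protein. Its 5 cytosines had 52.4%, 37.5% and 59.2% 5mC in control and 17.0%, 30.5% and 25.1% in DMM libraries at 12 weeks. At 4 weeks 2 of them could be read, with 33.3%, 15% and 25% in control and 24.6%, 8.82% and 13.3% in DMM libraries, which overlapped. This region also held the lower DMC with the widest difference in pooled reads (-44.7 points), the difference by which DMCs are ranked here and below, at chr9:67799207. By library its 5mC was 73.3%, 50% and 63.6% in control and 9.52%, 33.3% and 23.1% in DMM libraries. Another of the widest lower DMCs lay 10.9 kb downstream of Hdac11, a histone deacetylase, at chr6:91185569, with 64.3%, 54.5% and 72.7% in control and 0%, 28.6% and 45.5% in DMM libraries, on 11 to 14 reads each.

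The 3 DMRs higher in DMM lay at chr6:54719119-54719168, 15.3 kb downstream of Mturn, at chr16:32129582-32129626, 13.2 kb downstream of Nrros, which encodes a partner of latent TGF-beta, and at chr10:118085437-118085556, 14.8 kb downstream of the non-coding gene Gm32663. The first had 23.7%, 34.0% and 38.5% 5mC in control and 66.7%, 50% and 45.4% in DMM libraries at 12 weeks. The second had 30.1%, 39.7% and 24.4% in control and 47.7%, 56.5% and 63.3% in DMM. The third had 44.3%, 46.3% and 44.7% in control and 67.3%, 70.6% and 63.2% in DMM, with an SD of 1.06 points among the controls. At 4 weeks the DMM mean was again the higher in all 3, by 16.9, 17.3 and 11.1 points, and the limbs overlapped in each. The higher DMCs with the widest differences lay at chr7:136023080, 24.99 kb upstream of Gm51502, at chr16:32129582 within the DMR near Nrros, and at chr6:100331594, 44.2 kb upstream of Rybp, a Polycomb subunit. Near Gm51502 5mC was 36%, 38.5% and 42.9% in control and 77.4%, 66.7% and 63.9% in DMM libraries, and 5hmC was 16.3%, 28.2% and 15.2% in control and -4.69%, -7.41% and -0.253% in DMM libraries.

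**Figure D5:**
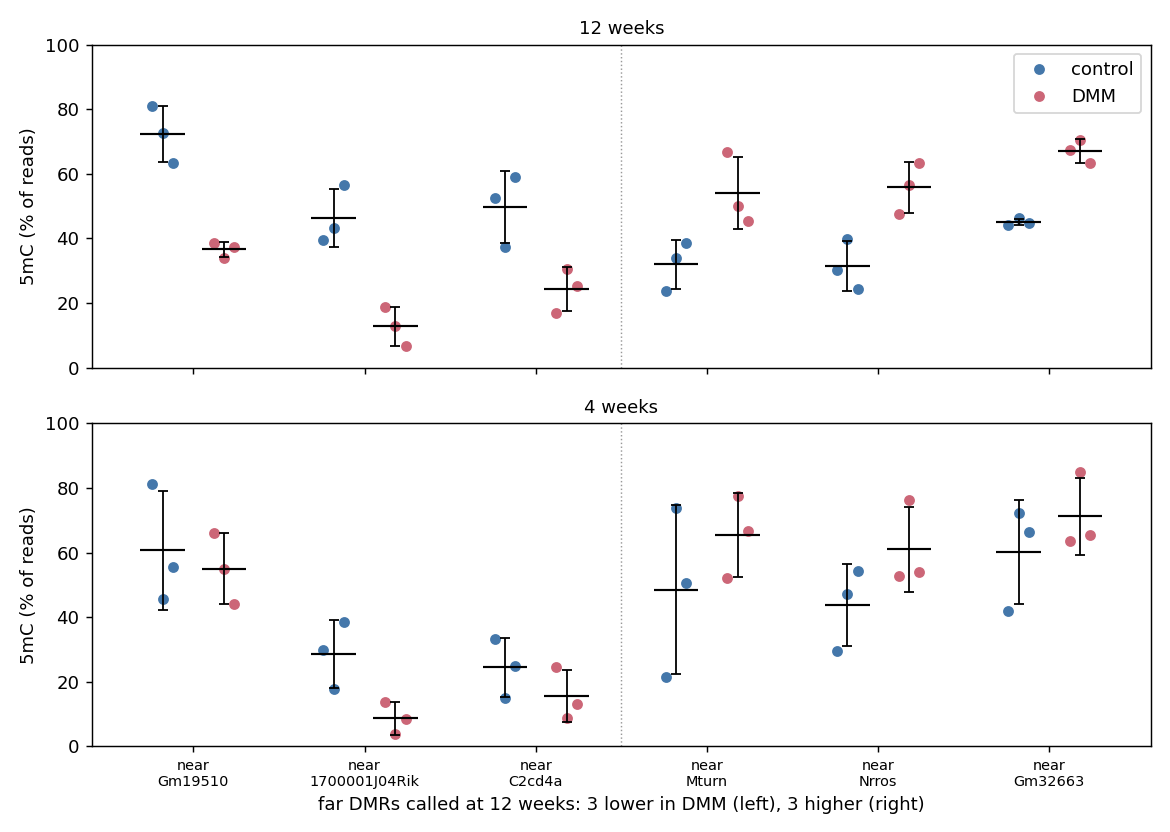
5mC in percent of reads (vertical axes from 0 to 100) of the 6 named far DMRs by nearest gene, at 12 weeks, when they were called (top), and at 4 weeks (bottom); points are the 3 control and 3 DMM libraries, bars means and SD. At 4 weeks the limbs stay apart only in the region near 1700001J04Rik, with 17.6% to 38.4% in control and 3.85% to 13.8% in DMM.

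Chains of at least 3 cytosines were also tested with libraries as the units, by limma's moderated test. It was run on log2 ratios of methylated to unmethylated reads for 5mC and on the BS minus the oxBS percentage for 5hmC. No far chain passed an adjusted p of 0.05 in either week or for either mark, and 0.0% of all chains did. At an unadjusted p under 0.05, 1512 of 13194 far chains (11.5%) had lower and 500 (3.79%) higher 5mC in DMM at 12 weeks, where 11.8% and 3.03% of all chains did, and 430 and 225 of 14093 did at 4 weeks (3.05% and 1.6%, against 3.11% and 1.56% of all chains). For 5hmC 633 of 12342 far chains (5.13%) were higher and 341 (2.76%) lower at 12 weeks, where 4.3% and 1.71% of all chains were, and 460 (3.51%) and 350 (2.67%) of 13100 at 4 weeks, where 2.84% and 1.73% were. When only chains of at least 5 cytosines were tested, 155 of 5130 far chains (3.02%) passed the adjusted p at 12 weeks, 147 of them lower in DMM, and 1.93% of all 56069 chains of that length passed it. The directions over all chains of that length were not counted. The lower chain with the smallest p lay at chr11:59892281-59892328, 15.7 kb downstream of Nt5m, with 52.0%, 55.3% and 57.6% 5mC in control and 29.6%, 28.4% and 23.3% in DMM libraries (limma, adjusted p = 0.0825). Its 5hmC was -13.4%, -13.7% and -8.47% in control and 4.17%, 9.08% and 5.66% in DMM libraries, so in control the BS libraries read less methylation than the oxBS libraries. The higher chain with the smallest p lay in a repeat at chr2:39704418-39704460, 129 kb downstream of the pseudogene Gm13452, with 84.8%, 84.8% and 85.9% in control and 97.3%, 97.3% and 97.1% in DMM libraries (limma, adjusted p = 0.0825). At 4 weeks that chain had a mean of 93.8% in control and 93.4% in DMM. The next in each direction were the chains near Gm19510 and Gm32663 described above (limma, adjusted p = 0.0825 for both).

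The 3 DMCs of 4 weeks included a lower one at chr2:27557134, 11.04 kb downstream of Gm13421, with 73.8%, 40% and 46.2% 5mC in control and 28.05%, 9.09% and 29.5% in DMM libraries, and a higher one at chr9:61681018, 19.6 kb upstream of Gm34770, with 3.85%, 20.5% and 6.25% in control and 47.1%, 46.7% and 36.1% in DMM libraries. At the latter 5hmC was 22.8%, 15.3% and 20.4% in control and -9.56%, -7.78% and 2.91% in DMM libraries. At 12 weeks the higher site had a mean 5mC of 24.2% in control and 20.7% in DMM, and its limbs overlapped. In the chain with the smallest p for lower 5mC at 4 weeks, 70.9 kb downstream of Fam53a at chr5:33529427-33529477, 5mC was 67.4%, 60.5% and 67.4% in control and 44.8%, 43.8% and 47.9% in DMM libraries (limma, adjusted p = 0.802), but 57.1% and 57.0% on average at 12 weeks.

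For 5hmC, 13 far cytosines were DMCs at 4 weeks and 48 at 12 weeks, 0.0129% and 0.0509% of the far cytosines against 0.00809% and 0.0383% of all cytosines tested. At 4 weeks 10 were higher in DMM (0.00995% against 0.00474%) and 3 lower (0.00298% against 0.00334%), and at 12 weeks 39 were higher (0.0413% against 0.0325%) and 9 lower (0.00954% against 0.00583%). None was left under the overdispersed test, whose few degrees of freedom leave it little power after adjustment. At an unadjusted p under 0.05 it found 5863 far cytosines at 4 weeks (5.83%) and 4693 at 12 weeks (4.97%), against 2.78% and 2.35% of all cytosines tested. The counts were higher when any single library was left out, 18 to 122 at 4 weeks and 71 to 173 at 12 weeks. These were 0.0179% to 0.121% and 0.0752% to 0.183% of the far cytosines, and 0.0127% to 0.0855% and 0.0605% to 0.120% of all cytosines tested were called in those settings. The balance of directions turned as well, to 49 higher and 124 lower at 12 weeks without control replicate 1, and to 11 and 12 at 4 weeks without control replicate 1 and 47 and 62 without control replicate 2. With negative values set to 0, as in the call, the 39 cytosines higher at 12 weeks had 5.55% 5hmC in control and 32.6% in DMM libraries. Their 5mC was 62.3% and 43.5%, and their BS level 64.9% and 75.9%. Repeats held 10.3% of these 39 and 5 of the 9 lower ones (55.6%), against 26.7% of the far cytosines read for 5hmC at 12 weeks.

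The cytosines with the widest gain of 5hmC at 4 weeks lay 20.5 kb upstream of Gli2, a transcription factor of hedgehog signalling, at chr1:119074920, 43.4 kb downstream of Ror2, a Wnt receptor, at chr13:53065897, and 23.9 kb downstream of Sox6 at chr7:115446935. Near Gli2 5hmC was -3.68%, 6.80% and -1.63% in control and 32.9%, 50.9% and 35.5% in DMM libraries, and 5mC was 65.2%, 61.02% and 62.5% in control and 40.7%, 40% and 34.2% in DMM libraries. Near Ror2 5hmC was 2.22%, 20.2% and -0.595% in control and 45.98%, 49.2% and 34.3% in DMM libraries. Near Sox6 it was -15.8%, 13.3% and 0% in control and 30.5%, 29.7% and 49.7% in DMM libraries. The site near Gli2 could be read again at 12 weeks, when 5hmC was 25.1%, 12.3% and 1.19% in control and 15.9%, -9.26% and 7.85% in DMM libraries, which overlapped. The widest losses at 4 weeks included chr5:115215775 near Gm35515, with 30.7%, 33.2% and 34.6% in control and 5.05%, 5% and 9.87% in DMM libraries, and chr9:51186427 near Gm32742, with 28.5%, 30.7% and 28.3% in control and 6.70%, 0.588% and -1.24% in DMM libraries.

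At 12 weeks the widest gain of 5hmC lay 10.4 kb downstream of Ubr4, a ubiquitin ligase, at chr4:139499930, with 5.51%, 16.6% and -40% in control and 43.8%, 69.05% and 38.97% in DMM libraries on 10 to 27 reads. It was followed by a cytosine of the DMR near Gm19510, with -3.62%, 2.60% and 8.24% in control and 58.4%, 32.5% and 31.5% in DMM libraries, and by chr14:105920864, 24.045 kb upstream of Spry2, an antagonist of growth factor signalling, with 3.56%, 5.30% and 17.5% in control and 41.2%, 25.6% and 48.9% in DMM libraries. At 4 weeks the site near Spry2 had a mean of 27.9% in control and 37.7% in DMM, and the limbs overlapped. The widest loss was in a repeat at chr13:75346734, near the pseudogene Gm19095, with 27.3%, 37.1% and 60.2% in control and 15.98%, 7.16% and 1.32% in DMM libraries. At 4 weeks that cytosine had a mean of 34.4% in control and 37.4% in DMM.

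The stretches with the highest 5hmC were high in both weeks and limbs. In the chain near 1110002J07Rik, at chr10:66937312-66937361, chosen for its 4-week control level, 5hmC at 12 weeks was 14.8%, 31.6% and 23.9% in control and 34.4%, 22.9% and 32.4% in DMM libraries, and its 5mC was lower than its 5hmC on average, at 12.8% in control and 15.7% in DMM. The chain near Gm36571 at chr12:55447683-55447732 had 15.5%, 24.02% and 13.9% in control and 22.1%, 12.5% and 29.9% in DMM libraries at 12 weeks. In the chain near the small nuclear RNA gene Gm22505, at chr3:99779034-99779118, 5hmC at 12 weeks was 14.05%, 9.89% and 14.1% in control and 25.6%, 15.1% and 21.03% in DMM libraries, and 5mC was 65.1%, 63.9% and 66.04% in control and 48.3%, 50.3% and 47.6% in DMM libraries. In this chain neither mark overlapped between the limbs at 12 weeks. Both overlapped at 4 weeks, where 5mC was 65.7%, 45.5% and 52.3% in control and 52.6%, 37.3% and 49.1% in DMM libraries and 5hmC was 17.7%, 28.7% and 28.1% and 26.4%, 42.7% and 24.7%. Over all far cytosines 5hmC averaged 2.22% in control and 2.99% in DMM at 12 weeks.

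The longest unmethylated stretches were CpG islands by their sequence. The first, at chr15:85670567-85672012 and 30.04 kb downstream of the non-coding gene D130051D11Rik, had 253 measured cytosines, a GC content of 77.1% and a ratio of observed to expected CpGs of 0.989. Its 5mC was 0.677%, 0.746% and 0.638% in control and 0.655%, 0.688% and 0.777% in DMM libraries at 4 weeks, and between 0.321% and 0.647% in the 6 libraries of 12 weeks. The second, at chr15:68362491-68363259 and 21.2 kb upstream of Mir30d, a microRNA gene, had 150 cytosines with a mean of 0.729% in control and 0.691% in DMM at 4 weeks. The limbs overlapped in both stretches, for 5mC and 5hmC and in both weeks. In the third by length, with 105 cytosines, they overlapped for 5mC in both weeks and for 5hmC at 4 weeks, and did not for 5hmC at 12 weeks, with 0.239% to 0.422% in control and -0.223% to 0.139% in DMM libraries.

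The cytosines with 100 bp on each side were searched on both strands for the letters of 4 motifs of factors active in cartilage and bone. TGANTCA, the AP-1 motif, was found around 46 of the 359 lower DMCs of 12 weeks (12.8%) and around 5.07% of all far cytosines of that week. GGAATG, of TEAD factors, was found around 77 lower DMCs (21.4%) and 11.1% of the far cytosines. TGTGGT, of RUNX factors, was found around 15.0% and 12.1%, and ACAATG, of SOX factors, around 8.64% and 7.47%. Among far cytosines with at least 20% pooled 5mC the shares were 4.999%, 11.3%, 12.5% and 7.66%. Around the 34 higher DMCs they were 11.8%, 14.7%, 11.8% and 2.94%. Repeats held 4.18% of the lower DMCs and 27.5% of the far cytosines, and no background of like level and repeat content was counted. Windows of neighbouring cytosines overlap and the shares are a description without a test.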

How the data were processed

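RRoxBS was analysed in 24 DNA libraries (BS and oxBS, 3 per limb and week) and RNA-seq in 12. Groups and replicate numbers came from the deposited labels. The authors digested DNA with MspI, combined 6 indexed libraries per pool, split each pool for oxidation or mock oxidation, sequenced 50 cycles and ran their own methylation pipeline. The submitters' processing notes name CASAVA 2.17, Bismark, STAR, featureCounts and the build mm10. Per CpG cytosine and strand, the deposited files give the coverage as counts of reads and the percent of reads with C and with T. No deposited coverage was under 10 reads, and methylated reads were coverage times percent. For RNA the authors deposited raw counts per RefSeq transcript, used here only as CPM of marker genes, and 98.1% of 30048 identifiers matched a gene symbol.

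Positions were compared with GRCm38 (RefSeq) and 2804147 of 2807845 lay at a CpG cytosine. Members were cytosines more than 10 kb from any RefSeq gene or pseudogene. The members, gene lists and classes were chosen with earlier results of these data known. Levels are unweighted means over cytosines, compared by two-sided exact permutation tests (20 arrangements in a week, 400 over both weeks, 4096 signs over 12 libraries) with Benjamini-Hochberg adjustment within families. DMCs came from logistic models of the pooled reads of each limb, compared by likelihood ratio and adjusted over all cytosines, with methylated BS reads minus BS coverage times the oxBS fraction (negative values set to 0) for 5hmC. The methylKit and eDMR packages were not used here. Chains of at least 3 cytosines were tested with limma 3.58.1 in R 4.3.3 (trend, pseudocount of 1 read for 5mC). Other steps used Python 3.11.15, NumPy 2.4.6, pandas 2.3.3, SciPy 1.17.1 and matplotlib 3.10.9. The tests were tested on simulated data. Coverage limits the precision of a single cytosine, and PCR reads without molecular identifiers are not independent molecules.

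Named sites were, for each mark, week and direction, up to 3 far DMCs of the widest pooled difference whose limbs did not overlap (1 per chain), up to 3 DMRs of the widest mean difference, the 2 chains of the smallest limma p, the 3 longest unmethylated chains and the 3 chains of at least 5 cytosines with the highest 4-week control 5hmC, each with its nearest RefSeq gene. Some of them are not described, and no sequence of chromosome 18 is given. Alternatives covered the coverage minimum, distance, gene annotation, read weights, thresholds, overdispersion, strands, chain rules, the replicate number as a block, single libraries, and the 12-week control replicate 2 and DMM replicate 1, whose titles share a style. The DMM effects by 5mC class, repeat, CpG density, distance bin and chromosome were run in the main setting only. The BS level, the log2 ratio, the comparison with each class near genes and the read-weighted level without the deepest 1% were added after seeing the data.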

Additional observations from a re-analysis of the deposited data

How the results depend on the processing

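Of 351 alternative settings of 35 levels or differences, 270 kept direction and side of the threshold, 47 lost the call, 1 gained it and 33 turned the direction; of the settings of counts, 93 stayed within 1.5 times and 61 did not. The causes were not tested.

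Beyond 50 kb, the far effect minus that of the other cytosines was 0.148 points at 12 weeks and 0.0526 over both for 5mC, and -0.0608 and -0.00158 for 5hmC; the 12 minus 4 week 5mC difference was 0.749, the BS difference -0.327, and 5mC DMCs numbered 0 at 4 weeks and 67 lower and 6 higher at 12 weeks, with 0 and 9 5hmC DMCs. Weighting by reads gave DMM effects on 5mC of 1.27 at 4 weeks and 0.109 over both, 12 minus 4 week differences of -1.72 in DMM and -0.537 over both limbs, far minus other effects of 1.55, 0.280 and 0.916 for 5mC (4 weeks, 12 weeks, both) and -0.101, -0.0574 and -0.0794 for 5hmC, a 5hmC effect of 0.409, a far minus other 5hmC level of -1.11, and BS effects of 1.57 and 0.546; without the deepest 1% the 5mC effect was -1.20. With negative 5hmC set to 0, the effect was 0.417, the far minus other effect -0.0172 at 12 weeks and 0.109 over both, and the 12 minus 4 week difference -0.305. As log2 ratios, far minus other 5mC effects were 0.0140, 0.0182 and 0.0161. Against cytosines within 10 kb of a gene alone the far effect was 0.0740, 0.134 and 0.104 apart for 5mC and -0.0688, -0.118 and -0.0932 for 5hmC, and against gene bodies alone 0.0151, 0.0990 and 0.0570, and -0.0804, -0.115 and -0.0978.

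DMC counts (5mC at 4 weeks, 5mC lower and higher at 12 weeks, then 5hmC at 4 and 12 weeks) were 5, 697, 74, 28 and 106 with protein-coding genes only (201555 far cytosines in place of 108731 for 5mC at 4 weeks, and 186897 in place of 101121 at 12 weeks), 5, 1150, 90, 81 and 261 at 20 points, and 0 in all with overdispersion. A q under 0.01 left 1, 226 and 19 for 5mC, a coverage of 20 left 176 and 17 for 5mC at 12 weeks and 0 and 4 for 5hmC, coverage scaled up gave 120 for 5mC and 37 for 5hmC at 4 weeks and 55 higher for 5mC at 12 weeks, the title style as a stratum left 22 higher, unweighted means gave 50 for 5hmC at 4 weeks, leaving out the most covered cytosines gave 0 for 5mC at 4 weeks, and the difference of differences gave 0 and 0 for 5hmC (6358 and 5806 at an unadjusted p under 0.05). The share of far cytosines called at 12 weeks was 1.71 times the share of all cytosines tested for 5mC, and 1.19 (beyond 50 kb) to 1.82 times in the other settings that kept all or all but 2 libraries and left calls. For 5hmC it was 1.33 times, and 0.778 (coverage of 20) to 1.58 times. DMRs with a mean of 25 points numbered 14, and 155 chains of at least 5 cytosines passed limma at 12 weeks. Without the 12-week pair of shared title style the 5hmC effect was 0.636, with 180 lower and 21 higher 5mC DMCs, 11 DMRs and 139 5hmC DMCs.

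Leaving out 1 library in turn gave 1 to 402 5mC DMCs at 4 weeks, 197 to 663 lower and 29 to 51 higher at 12 weeks, 18 to 122 and 71 to 173 5hmC DMCs, 0 to 32 and 14 to 78 DMRs at 4 and 12 weeks, and 0 chains by limma. Over both weeks the effect was -1.56 to -0.938 for 5mC, 0.523 to 0.897 for 5hmC and -0.724 to -0.439 for BS, far minus other -0.622 to -0.369 for 5mC and 0.198 to 0.331 for 5hmC, and 12 minus 4 weeks 0.871 to 1.49 for 5mC and -1.20 to -0.829 for 5hmC. The 5hmC effect and its far minus other value each lost the call without any of 7 libraries, the far minus other 5mC effect without 8.

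Deviations of same-numbered control and DMM libraries correlated at 0.227, 0.189 and 0.0015 at 4 weeks and at -0.0480, -0.0422 and 0.0412 at 12 weeks, and not every library correlated best with its own number, so the numbers were not taken as pairs. With the replicate number as a block, the 5mC difference over both weeks was -1.29 points (exact sign flips, p = 0.0312, the smallest 6 pairs allow), the 12-week counts were 338 lower and 32 higher DMCs and 45 DMRs for 5mC and 46 DMCs for 5hmC, and no level crossed the threshold. Depth limits single cytosines: the lower DMCs of 12 weeks had a median coverage of 34 reads and the 39 of higher 5hmC of 28 reads.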
